A study of Homo sapiens with 9 samples.

Results

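The genes examined here are 10 members of the interleukin-6 family and its signalling chain: the ligands LIF and IL11, the receptor chains IL6ST, IL6R, LIFR and OSMR, the kinases JAK1 and JAK2, the transcription factor STAT3 and its feedback inhibitor SOCS3. They were taken by gene symbol from 14232 genes that had a probe set annotated to a single symbol. Each of the 10 had 1 such probe set. The list was chosen by family and with the miR-520f values of these arrays in view, in which IL6ST was lower and IL6R higher. The values of these 2 genes are therefore given as a description with no test.

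RNA came from PANC-1, a human pancreatic carcinoma cell line, and was measured on arrays after 72 h in 3 groups of 3 biological replicates. One group received 20 nM of a miR-520f mimic, a synthetic double-stranded RNA that acts as the microRNA it copies. A second group received 20 nM of a control mimic, and the third, labelled non-transfected, received the lipid reagent alone. All 9 arrays therefore share the reagent and the line, the labels do not say which arm of miR-520f was copied, and the cell's own miR-520f was not measured. The series took genes that differed in the same direction from both controls as candidate targets.

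Interleukin-6 cytokines bind a receptor chain of their own (IL6R for interleukin-6) and then signal through the shared chain IL6ST, also called gp130. LIF acts through a pair of LIFR and IL6ST, and oncostatin M through OSMR or LIFR with IL6ST. The receptors carry JAK kinases, which phosphorylate STAT3, and STAT3 switches on SOCS3, which in turn blocks the receptor. In pancreatic carcinoma this route is studied for its part in inflammation and tumour growth.

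The sequences below are the natural arms of miR-520f, since the arm copied by the mimic is not given. They also show how the seed, bases 2 to 8 of a mature microRNA that guide target pairing, sits beside those of better known relatives. Capitals mark the seed, and sequences run 5′ to 3′ as given by RefSeq on GRCh38.p14.
hsa-miR-520f-3p: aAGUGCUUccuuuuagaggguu
hsa-miR-520f-5p: cCUCUAAAgggaagcgcuuucu
hsa-miR-520c-3p: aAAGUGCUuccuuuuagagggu
hsa-miR-302a-3p: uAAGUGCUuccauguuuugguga
hsa-miR-373-3p: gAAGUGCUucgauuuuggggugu
Both arms of miR-520f come from the plus strand of chromosome 19 (chr19:53682213-53682234 for the 3p arm and chr19:53682173-53682194 for the 5p arm). Among 2370 mature human names in the table, 0 others had the 3p seed at bases 2 to 8. In 11 others, including miR-520c-3p, miR-302a-3p and miR-373-3p, the same 7 letters began 1 base later, at bases 3 to 9. The 3′ UTRs of the 10 genes were not searched for a match.

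Values are RMA log2 intensities, in which 1 unit is a factor of 2. Array medians lay between 4.22 and 4.34, and the mean level of the tested genes had a median of 4.53, with a 10th percentile of 2.90. A gene was called at a limma p adjusted over all 14232 genes (Benjamini-Hochberg) under 0.05. The epithelial markers KRT8, KRT18, KRT19 and EPCAM stood at the 90.4th percentile of levels or above, CDH1 at 65.6 and KRT7 at 31.8. Of the measured markers of leukocytes, endothelium and fibroblasts, CD68 and COL1A1 stood at 88.9 and 86.7. The others (PTPRC, CD14, CD163, CD3E, COL1A2, DCN, LUM, PDGFRB, PECAM1, VWF, CDH5 and KDR) stood between 3 (CD163) and 40.8 (CD14).

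**Figure D1:**
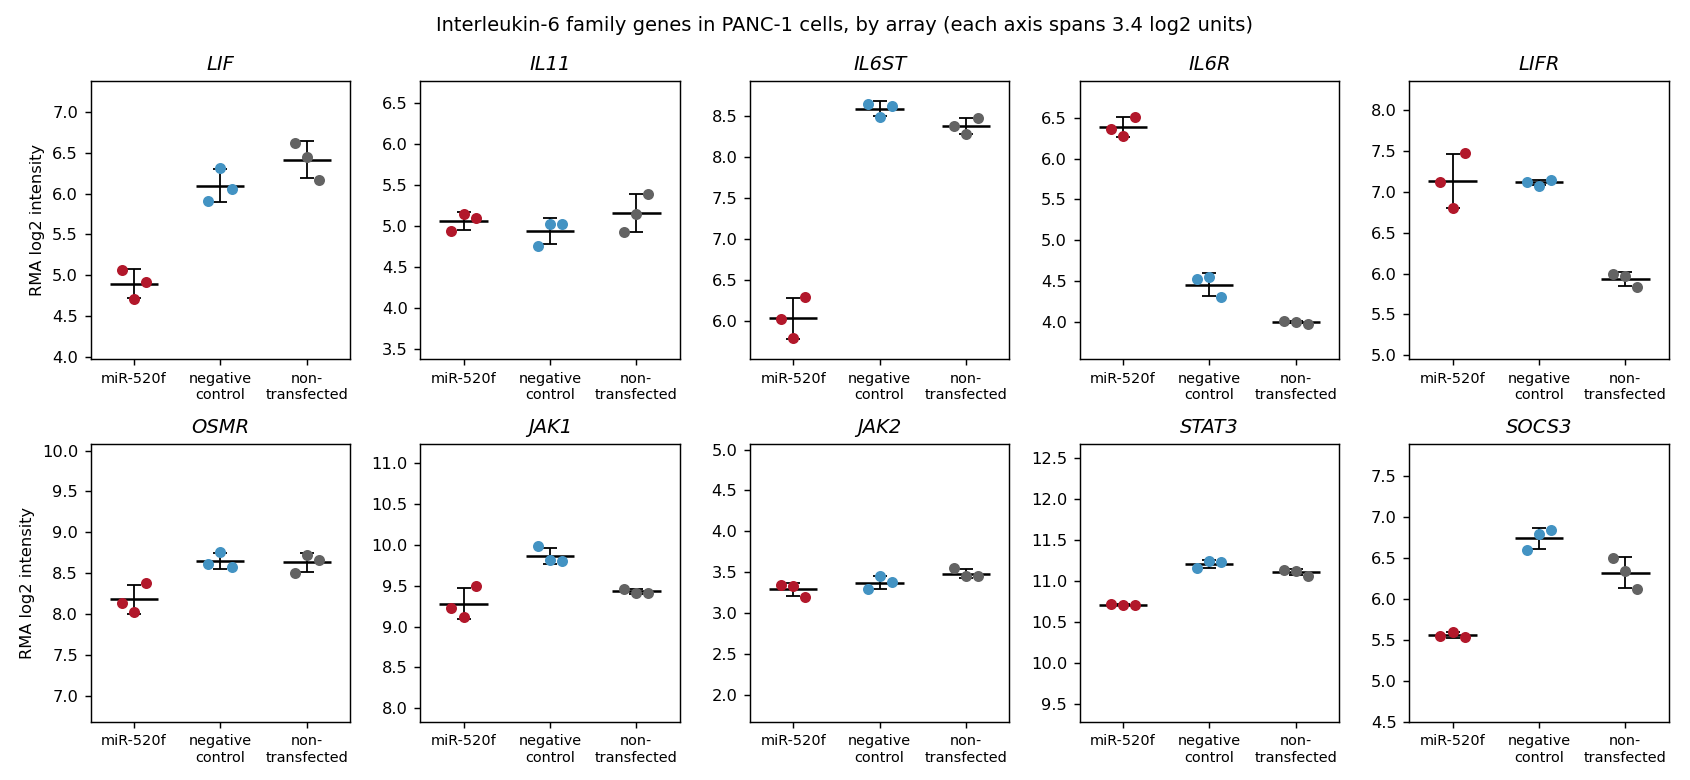
RMA log2 intensity of each of the 10 genes on each array (points), with the mean (bar) and SD (whisker) of 3 replicates for miR-520f, negative control and non-transfected cells; every axis spans the same number of log2 units. The miR-520f points lie below all 6 control points for LIF, IL6ST, OSMR, STAT3 and SOCS3 and above them for IL6R, and they overlap control points for the other 4 genes.

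IL6ST, the signal-transducing chain shared by the family, measured 6.02, 5.79 and 6.29 on the miR-520f arrays, 8.66, 8.49 and 8.63 on the negative control arrays and 8.39, 8.29 and 8.48 on the non-transfected arrays. All 3 miR-520f arrays lay more than 2 log2 units below their nearest control array. The log2 differences were -2.35 from non-transfected cells and -2.56 from the negative control (SE 0.12 each), so the level was 0.196 and 0.170 times that of these controls. These were the 7th and 4th lowest of 14232 fold changes. In RNA of whole cultures, a loss in some cells and less RNA in every cell cannot be told apart.

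IL6R, the ligand-binding chain for interleukin-6, measured 6.36, 6.27 and 6.51 on the miR-520f arrays, 4.52, 4.56 and 4.30 on the negative control arrays and 4.01, 4.0 and 3.98 on the non-transfected arrays. The groups did not overlap, and the order was miR-520f, then negative control, then non-transfected cells. It was higher by 2.38 on the log2 scale than in non-transfected cells and by 1.92 than in the negative control (SE 0.09 each), or 5.22-fold and 3.79-fold. They were the 4th and 14th highest of all genes. The control levels were near or below the median gene level, where RMA compresses differences.

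The receptor chains for LIF and oncostatin M came next. LIFR, which forms the LIF receptor with IL6ST, measured 7.11, 6.81 and 7.47 on the miR-520f arrays, 7.12, 7.08 and 7.14 on the negative control arrays and 6.0, 5.97 and 5.84 on the non-transfected arrays. The miR-520f and negative control arrays overlapped, and both groups lay above all non-transfected arrays. LIFR rose with miR-520f against non-transfected cells (log2 fold change 1.19, SE 0.13, limma adjusted p = 6.35e-05) and was not called against the negative control (0.02, 95% interval -0.28 to 0.31, adjusted p = 0.953). That second value was -0.15 without miR-520f replicate 3.

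OSMR, which forms an oncostatin M receptor with IL6ST, measured 8.14, 8.03 and 8.38 with miR-520f, 8.61, 8.77 and 8.58 with the negative control and 8.51, 8.72 and 8.67 in non-transfected cells. It fell by 0.45 on the log2 scale relative to non-transfected cells and by 0.47 relative to the negative control (SE 0.10; limma adjusted p = 0.00584 and 0.00431). The 2 control groups were interleaved.

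Of the ligands, LIF was lower with miR-520f and IL11 was not called. LIF measured 5.07, 4.71 and 4.92 with miR-520f, 5.91, 6.32 and 6.06 with the negative control and 6.62, 6.45 and 6.17 in non-transfected cells. All miR-520f arrays lay below all controls, and LIF fell by 1.52 relative to non-transfected cells and by 1.20 relative to the negative control on the log2 scale (SE 0.14; limma adjusted p = 1.39e-05 and 6.85e-05). IL11, whose receptor chain also pairs with IL6ST, measured 4.93, 5.14 and 5.10 with miR-520f, 4.75, 5.03 and 5.03 with the negative control and 4.93, 5.14 and 5.39 in non-transfected cells. The groups overlapped, and the 95% intervals of its log2 fold changes ran from -0.36 to 0.17 against non-transfected cells and from -0.14 to 0.39 against the negative control (limma adjusted p = 0.688 and 0.536).

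Among the kinases, the JAK1 difference depended on the control. JAK1, a kinase bound to IL6ST, measured 9.23, 9.12 and 9.49 with miR-520f, 9.98, 9.82 and 9.81 with the negative control and 9.46, 9.41 and 9.41 in non-transfected cells. The miR-520f arrays lay below all negative control arrays but on both sides of the non-transfected ones. JAK1 fell against the negative control (log2 fold change -0.59, SE 0.10, limma adjusted p = 0.000807) and was not called against non-transfected cells (-0.15, 95% interval -0.36 to 0.07, adjusted p = 0.348). JAK2, the second kinase, lay from 3.196 to 3.547 on all 9 arrays, below the median gene level. Its log2 fold changes of -0.19 and -0.08 were not called (limma adjusted p = 0.0859 and 0.495).

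STAT3, the factor these receptors activate, measured 10.72, 10.71 and 10.70 with miR-520f, 11.15, 11.24 and 11.23 with the negative control and 11.14, 11.12 and 11.06 in non-transfected cells. The miR-520f replicates were within 0.0146 of each other and below every control array. STAT3 fell by 0.40 on the log2 scale relative to non-transfected cells and by 0.50 relative to the negative control (SE 0.06; limma adjusted p = 0.000718 and 0.000144), which left 0.758 and 0.707 times the control levels. RNA level says nothing of STAT3 phosphorylation, which the arrays do not measure.

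SOCS3, the feedback inhibitor that STAT3 induces, measured 5.55, 5.60 and 5.53 with miR-520f, 6.59, 6.79 and 6.84 with the negative control and 6.50, 6.34 and 6.13 in non-transfected cells. All miR-520f arrays were below all control arrays. SOCS3 fell with log2 fold changes of -0.76 from non-transfected cells and -1.18 from the negative control (SE 0.10; limma adjusted p = 0.000187 and 8.18e-06).

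**Figure D2:**
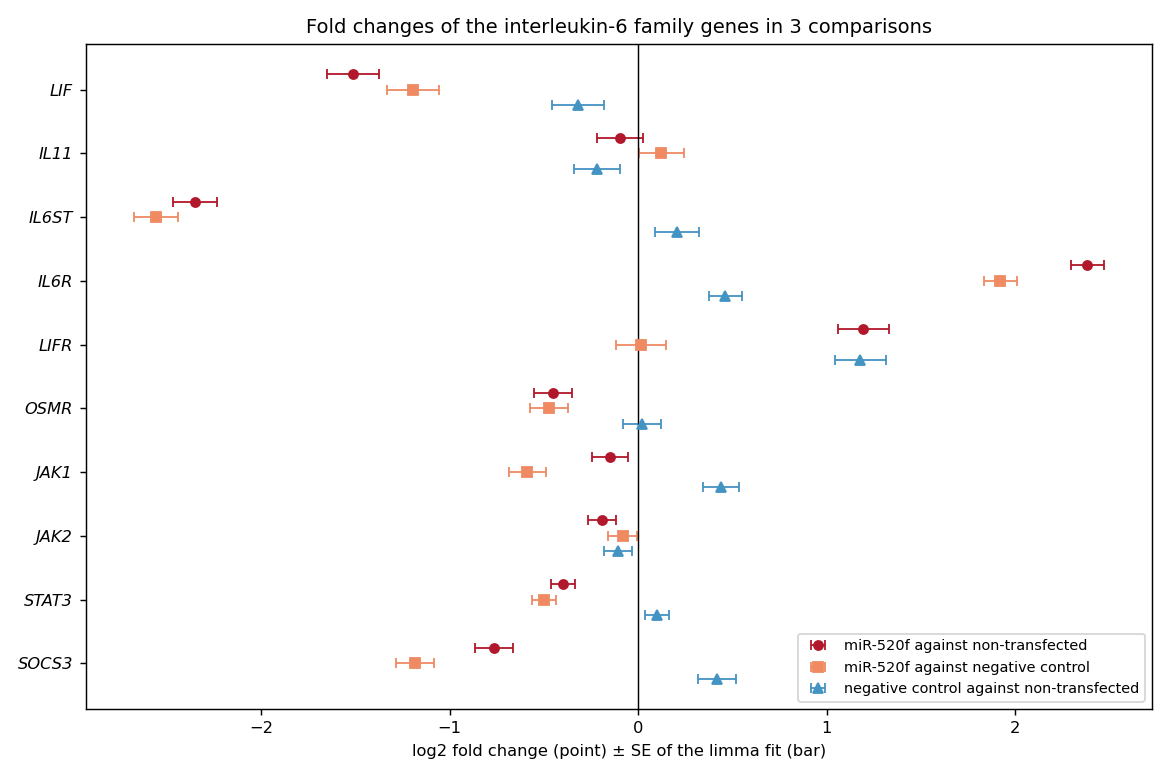
Log2 fold change (point) with the standard error of the limma fit (bar) of the 10 genes in 3 comparisons: the miR-520f group set against each control group, and one control group (negative control) set against the other (non-transfected). IL6ST lies at -2.35 and -2.56 and IL6R at 2.38 and 1.92 in the miR-520f comparisons, while the LIFR value is 1.19 relative to non-transfected cells and 0.02 relative to the negative control.

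IL6ST and IL6R are left out of the counts of calls. Against non-transfected cells, 1 of the other 8 genes was called higher with miR-520f and 4 lower, where 27.6% of all genes were called (14.5% higher and 13.1% lower). Against the negative control 0 were called higher and 5 lower, where 28.1% of all genes were called (15.4% higher and 12.6% lower). Against both controls with the same sign, 0 were higher and 4 were lower, where 18.0% of all genes were called (9.37% higher and 8.61% lower). These counts are given as a description, since the list was made with such results known. The shares of all genes also take in many dim genes, whereas JAK2 alone of the 10 had a mean over the 9 arrays under the median level of 4.53. The mean of IL6R passed that level only through the miR-520f arrays, since both of its control group means lay below it. The 4 genes lower against both controls were LIF, OSMR, STAT3 and SOCS3. The median log2 fold change of the 10 was -0.30 relative to non-transfected cells and -0.49 relative to the negative control, beside -0.03 and -0.03 over all genes. The miR-520f arrays stood apart from all 6 control arrays in 6 of the 10 genes (1 above and 5 below), against 25.4% of all genes (13.2% above and 12.1% below). The 1 above was IL6R and 1 of the 5 below was IL6ST, the genes whose direction was known when the list was made. Both comparisons use the same miR-520f arrays.

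Part of the family also differed between the 2 control groups. Leaving out IL6ST and IL6R, LIFR, JAK1 and SOCS3 of the other 8 were called higher in negative control than in non-transfected cells and 0 were called lower, where 15.3% of all genes were called (7.00% higher and 8.28% lower). LIFR rose by 1.18 on the log2 scale (SE 0.13, limma adjusted p = 0.000247), the 24th highest fold change of all genes. JAK1 rose by 0.44 (SE 0.10, limma adjusted p = 0.0105) and SOCS3 by 0.42 (SE 0.10, adjusted p = 0.0162). The SOCS3 call was lost without negative control replicate 2 (adjusted p = 0.0552), non-transfected replicate 2 (0.0504) or non-transfected replicate 3 (0.0544), and an unmoderated fit ended the calls of SOCS3 (0.0722) and JAK1 (0.0529). STAT3 differed by 0.10 (adjusted p = 0.399) and OSMR by 0.02 (adjusted p = 0.950), neither of them called. The log2 differences of IL6R and IL6ST between these groups, given as a description, were 0.46 (SE 0.09) and 0.21 (SE 0.12). All 3 negative control arrays lay above all 3 non-transfected arrays for IL6R. Among these genes the groups therefore ranked differently: SOCS3 and JAK1 were highest in the negative control, IL6R in miR-520f cells, and LIF in non-transfected cells, where its difference from the negative control was not called (-0.32, adjusted p = 0.170).

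Further genes of the pathway were listed by role, and 52 of 69 had a probe set of their own. Against both controls 5 rose and 14 fell with miR-520f, or 36.5%, beside 18.0% of all genes. Taken singly, 7 rose and 18 fell against non-transfected cells, beside 14.5% and 13.1% of all genes. Against the negative control 9 rose and 16 fell, beside 15.4% and 12.6% of all genes. Their median log2 fold changes were -0.05 and -0.06, beside -0.03 and -0.03 over all genes. The called genes were 48.1% of the 52 in each comparison, beside 27.6% and 28.1% of all genes. The shares of all genes, here and by role below, take in many dim genes. When only genes at or above the median level were fitted, the called share was about as high as among the 52. The 52 also include dim genes, and their share at that level was not computed. An excess of calls among pathway genes therefore cannot be told from these shares. The genes most often named as IL6R sheddases, ADAM10 and ADAM17, are among the listed genes not analysed here.

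**Figure D3:**
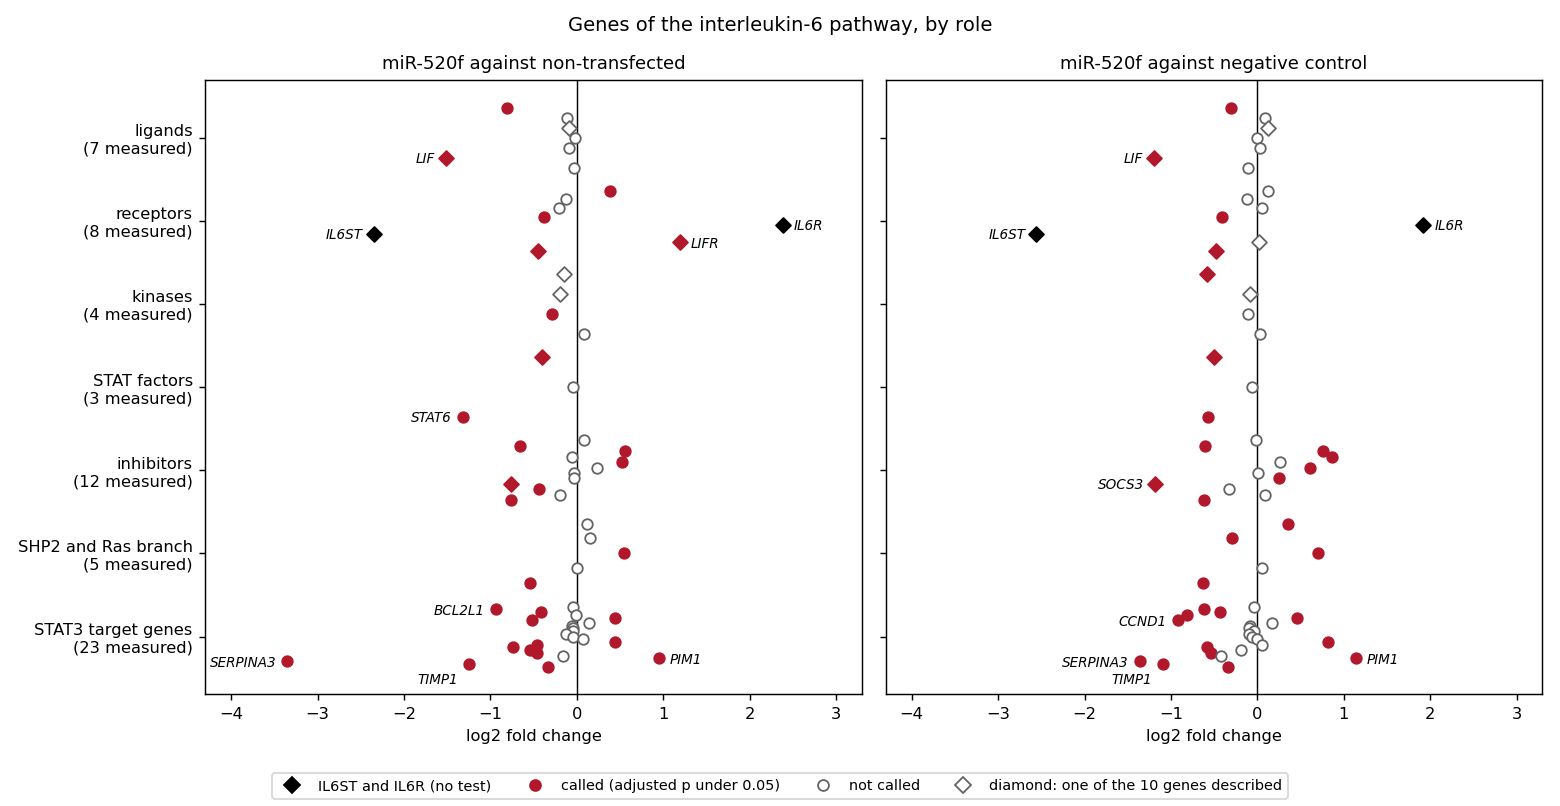
Log2 fold change of 62 measured pathway genes, the 10 described genes included (diamonds), by role, for the miR-520f group set against non-transfected cells (left panel) or the negative control (right panel); filled red symbols passed the limma threshold, black ones were not tested, and points are spread vertically within a role only for legibility. SERPINA3 has the lowest value of the STAT3 target genes at left (-3.35) and PIM1 the highest in both panels (0.95 and 1.14).

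Among the other ligands 5 were measured, and 1, CTF1 (cardiotrophin 1, which signals through LIFR and IL6ST), fell against both controls. That is 20.0%, near the 18.0% of all genes. CTF1 measured 4.80, 4.67 and 4.62 with miR-520f, 5.07, 4.91 and 5.04 with the negative control and 5.65, 5.52 and 5.36 in non-transfected cells. The 3 groups did not overlap. Its log2 fold changes were -0.81 and -0.31 (SE 0.09; limma adjusted p = 5.43e-05 and 0.0238), and the second lost its call without miR-520f replicate 2 (adjusted p = 0.0736) or 3 (0.0880), or negative control replicate 1 (0.0615) or 3 (0.0614). IL6 itself was dim, with means of 2.88, 2.85 and 2.97 in miR-520f, negative control and non-transfected cells, and was not called. Of 4 other receptor chains, IL31RA, which pairs with OSMR, fell by 0.38 and 0.40 on the log2 scale at levels of 2.97 to 3.49. It was the only 1 of the 4 called against both controls, or 25.0%, beside 18.0% of all genes.

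Of the other STAT genes, STAT4 and STAT6 were measured. STAT6, the factor activated by interleukin-4 and interleukin-13, measured 5.90, 5.86 and 5.76 with miR-520f, 6.29, 6.55 and 6.39 with the negative control and 7.22, 7.22 and 7.04 in non-transfected cells. It fell with log2 fold changes of -1.32 and -0.57 (SE 0.09; limma adjusted p = 1.61e-06 and 0.000528), and its log2 fold change between the negative control and non-transfected cells was -0.75 (adjusted p = 0.000304).

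Of 11 inhibitors besides SOCS3, 1 rose and 2 fell against both controls, or 27.3%, beside 18.0% of all genes. SOCS6, a SOCS-box protein linked to receptor tyrosine kinases, fell (-0.76 and -0.62), and PIAS3, a SUMO ligase that binds STAT3 and blocks its DNA binding, fell (-0.66 and -0.60). PIAS4, a related SUMO ligase, rose (0.56 and 0.76). PTPN1, a phosphatase that acts on JAK2, was named after its values were seen: it measured 7.38, 6.52 and 7.43 on average in miR-520f, negative control and non-transfected cells, rose against the negative control (0.86) and was not called against non-transfected cells (-0.05). On the branch from the receptor to Ras, the adaptor SHC1 fell (-0.54 and -0.63) and the adaptor GRB2 rose (0.54 and 0.70), with 5 genes measured. These 2 are 40.0% of the 5, beside 18.0% of all genes.

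Genes that STAT3 is known to switch on in other settings did not share a direction. Of 23 measured, 3 rose and 8 fell against both controls, or 47.8%, beside 18.0% of all genes (9.37% higher and 8.61% lower). The share of all genes takes in many dim genes, and a share at the level of these targets was not computed. The median log2 fold changes were -0.13 and -0.10, beside -0.03 and -0.03 over all genes. SERPINA3, an acute-phase protease inhibitor, measured 4.04, 4.07 and 4.15 with miR-520f, 5.40, 5.55 and 5.39 with the negative control and 7.49, 7.37 and 7.45 in non-transfected cells. The 3 groups did not overlap. SERPINA3 fell with miR-520f by 3.35 and 1.36 on the log2 scale (SE 0.07; limma adjusted p = 1.34e-09 and 4.13e-07), and it fell by 1.99 in negative control against non-transfected cells (adjusted p = 1.82e-07). TIMP1, an inhibitor of matrix metalloproteases, fell (-1.25 and -1.10), and BCL2L1, which protects cells from apoptosis, fell (-0.94 and -0.61). PIM1, a serine/threonine kinase, measured 7.20, 7.07 and 7.13 with miR-520f, 6.15, 6.07 and 5.75 with the negative control and 6.36, 6.04 and 6.13 in non-transfected cells. It rose (0.95 and 1.14, SE 0.11; limma adjusted p = 9.69e-05 and 2.58e-05), whereas SOCS3, also a known STAT3 target, fell. The other rises, named after their values were seen, were HIF1A, a subunit of the hypoxia factor (0.44 and 0.81), and BIRC5, or survivin (0.44 and 0.46). Besides LBP, given below, the other falls were CCND1 (-0.52 and -0.92), IRF1 (-0.74 and -0.58), BCL3 (-0.42 and -0.43) and VEGFA (-0.34 and -0.34). These were also named after their values were seen. BCL3 lost its call in 4 of 18 alternative settings in each comparison. The HIF1A call against non-transfected cells was at the margin (adjusted p = 0.0486). It was lost without miR-520f replicate 1 or 3 (0.0945 and 0.198), without negative control replicate 2 (0.0636) and without non-transfected replicate 1, 2 or 3 (0.143, 0.0914 and 0.0821), and with all probe sets in the fit (0.0880). An unmoderated fit ended the calls of SOCS6 (adjusted p = 0.0508), IRF1 (0.0561), BCL2L1 (0.0578), CTF1 (0.0586) and BCL3 (0.0758) against the negative control. Against non-transfected cells it ended those of BIRC5 (0.0532), BCL3 (0.0802) and HIF1A (0.162). Of the acute-phase genes FGA, FGB, FGG and CRP, named after their values were seen, 0 were called in either comparison, with group means of 2.81 to 3.06. Of all genes, 27.6% and 28.1% were called. LBP, also acute-phase and named after its values were seen, fell (-0.46 and -0.54, limma adjusted p = 0.0321 and 0.0151). Its call was lost in 7 of 17 alternative settings against non-transfected cells and in 2 of 17 against the negative control.

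The genes whose pattern over the 9 arrays was most like that of IL6ST, among 1544 genes with a mean of at least 5 and a range of at least 1, were NT5E (Pearson r = 0.997), the kinase gene UHMK1 (0.996) and MRPS35 of the mitochondrial ribosome (0.995). NT5E, an ecto-enzyme that makes adenosine, averaged 8.52 with miR-520f, 10.50 with the negative control and 10.23 in non-transfected cells. Most like IL6R were the splicing factor gene PRPF38A (r = 0.996), C16orf87 (0.994) and DSG2, a desmosomal cadherin (0.991). DSG2 averaged 8.03, 7.09 and 6.87 in the same groups. The coefficients are a description over 9 arrays that fall into groups, and they reflect chiefly the distance between the miR-520f arrays and the others.

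**Figure D4:**
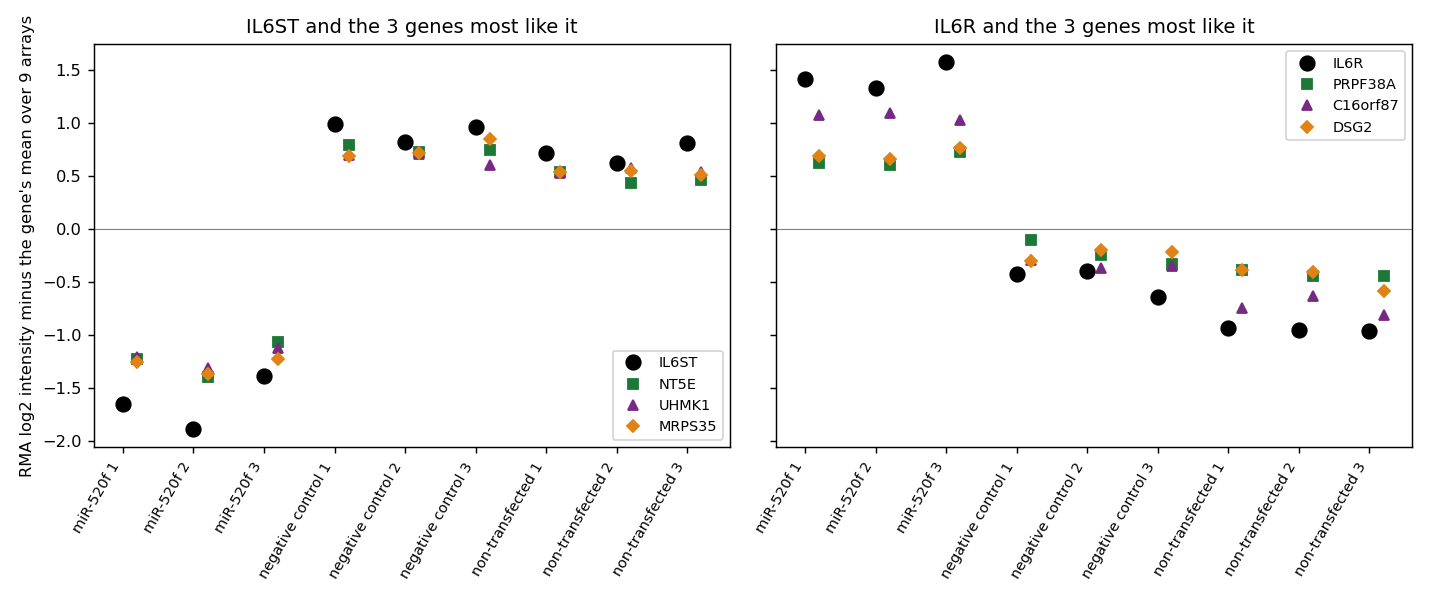
RMA log2 intensity minus the gene's own mean over 9 arrays, for IL6ST (left, black) and IL6R (right, black) and for the 3 genes with the highest Pearson r to each, by array. The IL6ST group is low on the 3 miR-520f arrays and high on the 6 control arrays, the IL6R group the reverse, with smaller excursions in the like genes than in IL6ST and IL6R.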

How the data were processed

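The deposited table holds log2 intensities of 22011 probe sets, 1 column per array. RMA, Partek 6.6 and build hg18 are named in the submitters' processing notes, without settings, and RMA background correction, normalization between arrays and summary over probes precede the deposited log2 values. Any filter by the authors is not given in the sources used here. RMA compresses differences of dim genes, and no gene was called absent. The platform annotation gave 14432 probe sets a single symbol, 2408 several and 5171 none. Per gene the probe set with the highest mean was used, which left 14232 genes, with no filter on low values. The build of the notes differs from that of the gene table, so no gene coordinates are given.

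Groups came from the sample titles. Limma 3.58.1 in R 4.3.3 fitted 1 mean per group over 9 arrays (6 residual degrees of freedom, empirical Bayes), and was tested on simulated data. The members, pathway lists and tests were chosen with earlier results of these data known. All 10 members are named, with up to 4 genes per pathway list called against both controls (ranked by the smaller absolute log2 fold change), and the 3 genes most like IL6ST and IL6R. IL6, STAT4 and the genes so marked in the text were named outside this rule, after their values were seen. The labels call replicates biological but give no separate cultures, so the p-values cover only the spread over these arrays, which may be technical. The number of arrays limits the precision. Alternatives were a replicate block, an unmoderated fit, the compared groups only, further normalization, a filter on dim genes, other treatments of probe sets, other moderation and leaving out each array.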

Additional observations from a re-analysis of the deposited data

How the results depend on the processing

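IL6ST and IL6R, whose direction was known when the list was made, are left out of the member counts here too. Of the other 8 members, 0 were called higher and 4 lower against both controls, beside 9.37% and 8.61% of all genes. The 4, LIF, OSMR, STAT3 and SOCS3, kept these calls in all 18 alternative settings, and no other of the 8 gained one. Over all 62 measured pathway genes, IL6ST and IL6R included, 6 were called higher and 19 lower against both controls in the main fit. Under the alternative settings this count ranged from 4 to 7 higher and from 13 to 20 lower. The share of all genes called against both controls was not computed for those settings. The log2 difference of IL6ST ranged from -2.48 to -2.23 against non-transfected cells and from -2.69 to -2.44 against the negative control, and that of IL6R from 2.32 to 2.45 and from 1.84 to 1.98. The negative control against non-transfected cells called 2174 genes (996 higher and 1178 lower), against 1287 (536 higher and 751 lower) in the unmoderated fit. With 1 array left out it called 1394 to 2181 genes (614 to 1041 higher and 780 to 1140 lower), with the lowest values without non-transfected replicate 2. Values of uncalled genes that changed sign were LIFR against the negative control (-0.0105 after a further quantile normalization, and -0.15 to 0.18 with 1 array left out), IL11 against non-transfected cells (-0.21 to 0.023) and OSMR in negative control against non-transfected cells (-0.0409 to 0.067). The cause of these changes was not tested. Same-numbered arrays shared no labelled source beyond the replicate number, and the numbers were not taken as pairs. Their deviations correlated from -0.03 to 0.20, and those of differently numbered arrays from -0.44 to 0.33. Whether same-numbered arrays were handled together cannot be told from these values. With a replicate block the miR-520f group differed in 4060 genes from non-transfected cells and in 4159 from the negative control, and the controls differed from each other in 2297. The block changed no call of the 8 members other than IL6ST and IL6R. JAK2, IL31RA, IRF1 and LBP had no value under the filter on dim genes. No background values were used, so how far dim genes such as JAK2, IL6 and IL31RA stood above background is unknown.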

Other observations

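Spread among the miR-520f replicates was unequal over the family. The range over the 3 miR-520f arrays was 0.66 log2 units for LIFR and 0.50 for IL6ST, but 0.07 for SOCS3 and 0.01 for STAT3. In IL6ST, IL6R, LIFR, OSMR and JAK1, miR-520f replicate 3 gave the highest and replicate 2 the lowest of the 3 values. The same held for 20.4% of all genes and for 28.5% of the genes at or above the median level. Replicate 3 also had the lowest array median (4.22, against 4.27 and 4.29 for replicates 1 and 2) and the highest upper quartile (6.81, against 6.75 and 6.74). The part of this array's spread in the values was not tested. After a further quantile normalization the IL6ST log2 differences were -2.38 (non-transfected cells) and -2.59 (negative control), and that of LIFR from the negative control was -0.0105. These are differences of group means, and the order of the replicates under that setting was not examined.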
